A study of Mus musculus with 9 samples.

Results

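Bile acids are made from cholesterol in hepatocytes, conjugated to taurine or glycine, pumped across the canalicular membrane into bile, and taken up again from portal blood. The classic pathway starts with CYP7A1 and the alternative pathway with CYP27A1 and CYP7B1, and the enterohepatic circle is closed by sinusoidal uptake carriers, canalicular ABC pumps and an endocrine loop in which intestinal FGF15 acts on hepatic FGFR4 and its co-receptor KLB. The 34 genes described here are listed members of this system, chosen by name but with earlier results of these data known. Of these, 33 had a row among the 16755 genes of the deposited table, and 32 had a mean over the 3 groups of at least 1. This filter was used for every count of group means unless stated otherwise. The level of Slc51a was not analysed here, and the gene enters only the promoter counts.

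Poly(A) RNA of liver tissue from C57BL/6 mice, of substrain C57BL/6J in the study's methods, was sequenced in 9 samples, 3 in each of 3 groups. The first group was Scd2f/f mice, which carry loxP sites around the third exon of stearoyl-CoA desaturase 2 (Scd2), left untreated. The second was Scd2f/f mice that at 2 weeks of age had an injection of 10 mg/kg diethyl nitrosamine (DEN), a liver carcinogen. From the age of 6 weeks they were fed a Western alcohol diet (WAD), a liquid feed rich in lard and cholesterol with added ethanol, for 4 months by the labels. The third was Scd2f/f;Col1a1-Cre (Scd2f/f;CC) mice on the same DEN + WAD regimen, in which Cre is driven by the Col1a1 promoter in activated hepatic stellate cells (aHSC) and portal fibroblasts rather than in hepatocytes. All 3 groups carry the floxed allele and, by the study's methods, all mice were male. The labels name the tissue only as liver. The study places the treated samples next to tumors in one passage and states that they held microscopic tumors. In another it names the tissue NTL, which it does not spell out. It also reports markedly diminished tumors in Scd2f/f;CC mice, and the tumor content of these samples was not tested here. Its text gives a longer feeding time than the labels. DEN and each part of the diet came together and cannot be told apart, and neither can loss of Scd2 from the presence of Cre. An untreated Scd2f/f;CC group was not analysed here.

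Every level below is the authors' mean of 3 samples in normalized counts, and is named in the order untreated Scd2f/f, DEN + WAD Scd2f/f and DEN + WAD Scd2f/f;CC. The spread between samples and the depth of each library are unknown from these values, so no test was made. A gene is counted as higher or lower where 2 group means differ at least 2-fold, unless another limit or any amount is named. Members are read beside the share of all genes above this filter, 11784 in number, that pass the same limit. The targeted gene Scd2, a delta-9 fatty acid desaturase, had means of 2.46, 6.47 and 1.87, lowest in the Scd2f/f;CC group. The hepatocyte markers were abundant in every group, with summed means of 47087, 48013 and 53650 over 9 genes. In bulk tissue, fewer cells of a type and less RNA per cell cannot be told apart.

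In untreated liver the members spanned more than 3 orders of magnitude per kilobase of exon. Scp2, whose products carry sterols and cleave the shortened side chain in peroxisomes, had the highest mean per kilobase at 615. Slco1b2, the main liver-specific organic anion transporter of the mouse, followed at 321, Cyp7b1 at 147 and the bile acyl-CoA synthetase gene Slc27a5 at 130. At the low end stood Abcc4, an inducible sinusoidal pump, at 0.30 per kilobase, and Slc51b, the beta subunit of the basolateral organic solute transporter, at 0.14. Canalicular pumps lay between, with Abcb11 at 46.1, Abcc2 at 37.0 and Abcb4 at 34.1 per kilobase. The members of the hepatic synthesis, uptake and canalicular export steps were thus all measured, while Slc51b lay below the filter.

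**Figure D1:**
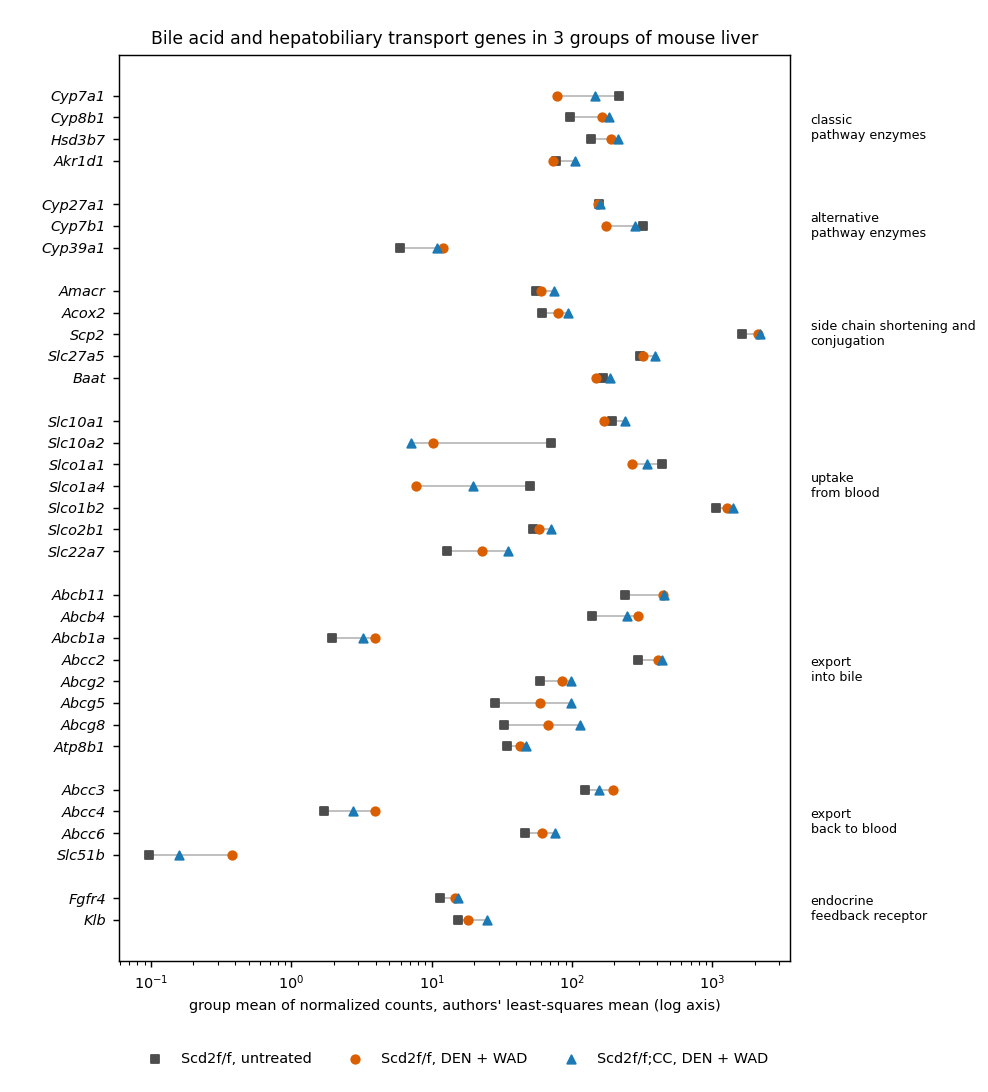
Group means of the 33 measured members on a logarithmic axis of normalized counts, 1 row per gene and ordered by role. Grey squares are untreated Scd2f/f, orange circles DEN + WAD Scd2f/f and blue triangles DEN + WAD Scd2f/f;CC, without error bars because the table holds group means only. Slc10a2 and Slco1a4 show the widest gaps, from 71.0 to 7.15 and from 50.3 to 7.74.

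DEN + WAD was first set against no treatment in Scd2f/f liver. Of the 32 members, 6 were at least 2-fold higher in DEN + WAD liver, against 6.4% of all genes, and 3 were at least 2-fold lower, against 2.89% of all genes. Those higher were the canalicular genes Abcb4, Abcb1a, Abcg5 and Abcg8, the sinusoidal pump gene Abcc4 and the oxysterol hydroxylase gene Cyp39a1, and their ratios lay close to the limit, from 2.03-fold to 2.28-fold. The count was 3 with a pseudocount of 1 or with a minimum mean of 10, and 5, without Abcb1a, once ratios were centred on the median gene. Those lower were Cyp7a1, Slc10a2 and Slco1a4, with ratios of 2.77-fold to 6.96-fold. With a limit of 1.5-fold, 10 members were higher against 12.8% of all genes and 5 lower against 8.6%. The median log2 ratio was 0.36 over the members and 0.03 over all genes. In any amount 23 members were higher and 9 lower, against 6216 higher and 5498 lower of the 11784 genes above the filter.

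Synthesis genes did not move as a block. Cyp7a1, which encodes the rate-limiting enzyme of the classic pathway (chromosome 4, 6265612 to 6275633, minus strand, mm10), had means of 217, 78.2 and 147. The mean was 2.77-fold lower in DEN + WAD than in untreated Scd2f/f liver, a log2 ratio of -1.47, and the 149th lowest ratio of 11784 genes. In DEN + WAD Scd2f/f;CC liver it was 1.88-fold above DEN + WAD Scd2f/f, the 93rd highest ratio in that comparison, and lay between the other groups. Cyp8b1, the hydroxylase that directs synthesis to cholic acid, stood the other way in treated Scd2f/f liver, with means of 96.6, 164 and 183. Its ratio of DEN + WAD over untreated Scd2f/f was 1.70-fold, and the ratio of Scd2f/f;CC over Scd2f/f under DEN + WAD was 1.12-fold. The sterol nucleus enzymes differed less. Hsd3b7, which oxidizes the ring hydroxyl group, had means of 137, 190 and 214. Akr1d1, which reduces the ring double bond, had means of 76.4, 72.7 and 105, a log2 ratio of 0.53 for Scd2f/f;CC over Scd2f/f under DEN + WAD.

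Within the alternative pathway, the 3 enzymes each showed a different order of the groups. Cyp27a1, the mitochondrial side chain hydroxylase, was nearly level at 156, 153 and 158. Cyp7b1, the oxysterol hydroxylase that acts after it, had means of 319, 174 and 283, which is 1.83-fold lower in DEN + WAD than in untreated Scd2f/f liver and 1.63-fold higher in Scd2f/f;CC than in Scd2f/f liver under DEN + WAD. Cyp7a1 and Cyp7b1 thus both had their lowest mean in DEN + WAD Scd2f/f liver. Cyp39a1, which hydroxylates another oxysterol, was scarce, with means of 5.91, 12.1 and 11.0, and was 2.05-fold higher in DEN + WAD than in untreated Scd2f/f liver.

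Genes for side chain shortening and conjugation lay closest together, with no member past 2-fold in any comparison. The means of Amacr, the racemase of the side chain, were 55.6, 60.6 and 74.3, and those of Acox2, the peroxisomal branched-chain oxidase, 61.2, 79.2 and 93.2. Scp2 had means of 1630, 2110 and 2180. Slc27a5 and Baat, which activate bile acids with coenzyme A and join them to taurine or glycine, had means of 303, 319 and 390 and of 165, 149 and 186. All 5 genes had their highest mean in the Scd2f/f;CC group. The largest of their ratios to untreated liver was 1.52-fold, for Acox2.

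Uptake carriers held the largest differences of the whole set. Slc10a2, the apical sodium-dependent bile acid carrier of ileum and cholangiocytes (chromosome 8, 5083219 to 5105351, minus strand), had means of 71.0, 10.2 and 7.15. It was 6.96-fold lower in DEN + WAD than in untreated Scd2f/f liver, the 35th lowest ratio of all genes, and 9.93-fold lower in the Scd2f/f;CC group than in untreated liver. Both DEN + WAD groups were far below the untreated group. The 10 cholangiocyte markers, counted without the filter because 6 had means under 1, also had the lowest sum in the Scd2f/f;CC group. They summed to 65.8, 62.9 and 26.6, with a median log2 ratio of 0.41 for DEN + WAD over untreated Scd2f/f and of -1.74 for Scd2f/f;CC over Scd2f/f under DEN + WAD. Most of each sum was Spp1, with means of 52.3, 45.1 and 14.8. In DEN + WAD over untreated Scd2f/f, Krt19 at 0.75 and 0.75 was level, Krt7 had a log2 ratio of -0.58, and Sox9, Tspan8, Cldn7, Cftr and Muc1 had log2 ratios of 0.75 to 1.84. The part of cholangiocytes in the Slc10a2 values was not tested.

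Slco1a4, an organic anion transporter of the sinusoidal membrane (chromosome 6, 141805440 to 141856199, minus strand), had means of 50.3, 7.74 and 19.7. It was 6.50-fold lower in DEN + WAD than in untreated Scd2f/f liver, the 38th lowest ratio of all genes. In the Scd2f/f;CC group it was 2.55-fold above DEN + WAD Scd2f/f, the 31st highest ratio in that comparison, and still 2.55-fold below untreated liver. Its neighbor and close relative Slco1a1, which lies 51.1 kb from it on the same strand, had means of 437, 268 and 345, the same order over a narrower range, with a ratio of 1.63-fold between untreated and DEN + WAD Scd2f/f. Slco1b2, on the other side and on the opposite strand, had means of 1060, 1280 and 1400. Of these 3 neighboring members, the minus-strand pair thus had its highest mean in untreated liver and Slco1b2 its lowest. Other carrier genes of the region were not looked up. Transcripts of Slco1a1 and Slco1a4 share an exact run of 132 bases in GENCODE M21, and the authors' counting method divides reads that fit both genes, so the split between the pair is uncertain.

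The sequences before the start sites of the 3 uptake genes lowest against untreated liver are shown because all 3 had lower means in DEN + WAD than in untreated Scd2f/f liver. They are from RefSeq on GRCm38.p6, read 5′ to 3′ on the gene's strand up to 250 bases before its RefSeq start, and the Slc10a2 stretch ends where the table's gene model begins. Capitals mark AGGTCA, the recognition element of many nuclear receptors, CAAGGTCA, the extended element of monomeric receptors such as LRH-1, TATAAA, and GATAA, the core of GATA factor sites, each on either strand. The Slc10a2 stretch is chr8:5105352-5105537, that of Slco1a4 chr6:141856221-141856470 and that of Slco1a1 chr6:141946963-141947212.
Slc10a2: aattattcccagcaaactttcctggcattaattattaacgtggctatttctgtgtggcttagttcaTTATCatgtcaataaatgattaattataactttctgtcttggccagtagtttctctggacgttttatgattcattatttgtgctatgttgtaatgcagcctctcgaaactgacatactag
Slco1a4: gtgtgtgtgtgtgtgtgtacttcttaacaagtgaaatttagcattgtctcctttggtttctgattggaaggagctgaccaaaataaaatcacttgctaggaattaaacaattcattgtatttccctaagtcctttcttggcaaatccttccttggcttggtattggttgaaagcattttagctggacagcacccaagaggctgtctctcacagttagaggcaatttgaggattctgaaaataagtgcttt
Slco1a1: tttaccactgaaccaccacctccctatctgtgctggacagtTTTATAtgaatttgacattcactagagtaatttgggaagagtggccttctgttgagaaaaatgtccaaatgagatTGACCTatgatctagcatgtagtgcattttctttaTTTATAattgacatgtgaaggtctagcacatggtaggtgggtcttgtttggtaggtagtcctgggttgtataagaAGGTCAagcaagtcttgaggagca
The Slco1a4 stretch held none of these letters. The Slc10a2 stretch held GATAA on the opposite strand, with the first printed base of the match 184 bases before the RefSeq start. Slco1a1 held AGGTCA at 24 and 134 bases and TATAAA at 99 and 209 bases before its start, also by first printed base. Of these Slco1a1 matches, only AGGTCA at 24 bases was on the gene's strand.

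Among the other uptake carriers, Slc10a1, the main sodium-dependent bile acid carrier of hepatocytes, had means of 192, 170 and 240, within 1.41-fold in each comparison. Slco2b1, a broad organic anion carrier, had means of 52.9, 57.9 and 71.3. Slc22a7, the organic anion transporter OAT2, had means of 12.8, 22.7 and 34.8 and stood 2.72-fold higher in the Scd2f/f;CC group than in untreated liver. Of the 7 uptake genes, 3 were higher and 4 lower in any amount in DEN + WAD than in untreated Scd2f/f liver. Over the 11784 genes above the filter, 6216 were higher and 5498 lower. Between the DEN + WAD groups, 6 uptake genes were higher in any amount in Scd2f/f;CC liver, Slc10a2 being the exception, against 5957 of the 11784 genes.

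For export into bile, all 8 genes had higher means in both DEN + WAD groups than in untreated liver, with a median log2 ratio of 0.96 for DEN + WAD over untreated Scd2f/f, and 4 were at least 2-fold higher, against 6.4% of all genes. Of the 11784 genes above the filter, 6216 were higher in any amount in DEN + WAD than in untreated Scd2f/f liver. In Scd2f/f;CC under DEN + WAD over untreated liver, 6397 were higher. Between the DEN + WAD groups 6 export genes were higher and 2 lower in any amount in Scd2f/f;CC liver, against 5957 and 5698 of the 11784 genes. Abcb11, the bile salt export pump (chromosome 2, 69238282 to 69342616, minus strand), had means of 237, 443 and 452, a ratio of 1.87-fold with DEN + WAD and of 1.02-fold between the DEN + WAD groups. Abcb4, the phosphatidylcholine floppase that protects the duct from bile salts (chromosome 5, 8893717 to 8959231, plus strand), had means of 139, 294 and 246. Abcc2, the pump for bilirubin and other conjugates, had means of 297, 411 and 438. The means of the efflux pump gene Abcg2 were 58.9, 85.1 and 98.5, and those of Atp8b1, the aminophospholipid flippase of the canalicular membrane, 34.7, 42.9 and 47.3.

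Abcg5 and Abcg8 encode the partner subunits of the sterol export pump and had means that were higher in each group than in the one before, in the order given. Abcg5 (chromosome 17, 84658234 to 84683011, minus strand) had means of 28.3, 59.2 and 99.0. Abcg8 (chromosome 17, 84676302 to 84700333, plus strand) had means of 32.7, 67.6 and 114. The ratios of DEN + WAD over untreated Scd2f/f were 2.09-fold for Abcg5 and 2.07-fold for Abcg8. Those of Scd2f/f;CC over Scd2f/f under DEN + WAD were 1.67-fold and 1.69-fold, and those of Scd2f/f;CC under DEN + WAD over untreated liver 3.50-fold and 3.49-fold. The pair thus differed in the same way in all 3 comparisons. Their annotated spans overlap by 6.71 kb, of which 40 bases are exon in both, and the library kit does not keep strand, so reads from those bases cannot be told apart.

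The stretch between the RefSeq starts of Abcg5 and Abcg8 is shown because the RefSeq models of both genes are read outward from it. The Abcg8 span given above begins further upstream, at 84676302, and holds the whole stretch. It spans the 109 bases of chr17:84683012-84683120 on GRCm38.p6 and is written on the plus strand, the direction of Abcg8. The 250 bases before the start of Abcb11, chr2:69342617-69342866 on the minus strand, are given beside it as the promoter of the main bile salt pump. Capitals mark the same letters as above.
Abcg5-Abcg8: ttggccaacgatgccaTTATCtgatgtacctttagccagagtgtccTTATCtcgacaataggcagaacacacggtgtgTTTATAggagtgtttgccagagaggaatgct
Abcb11: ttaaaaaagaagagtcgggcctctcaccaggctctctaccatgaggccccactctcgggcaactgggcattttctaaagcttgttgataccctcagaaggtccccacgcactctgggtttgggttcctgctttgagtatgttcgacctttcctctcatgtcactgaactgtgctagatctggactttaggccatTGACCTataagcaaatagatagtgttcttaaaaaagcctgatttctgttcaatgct
Between Abcg5 and Abcg8, the first printed base of GATAA lay 93 and 63 bases and that of TATAAA 31 bases before the Abcg8 RefSeq start. All of these matches were on the strand opposite to Abcg8. Before Abcb11, the first printed base of AGGTCA lay 56 bases from the start, also on the opposite strand. RefSeq promoters were found for 24 of the 34 members and for 27025 genes in all. AGGTCA and GATAA were added as motifs after the sequences were seen, so their shares are description only. AGGTCA was in 9 member promoters, 37.5%, and in 13.8% of all. TATAAA was in 6, 25%, against 13.0%, GATAA in 8, 33.3%, against 23.0%, and CAAGGTCA in 1, that of Abcg2, or 4.17% against 1.31%. Any CAAGGTCA is also counted as AGGTCA, and the matches between Abcg5 and Abcg8 are counted for both genes. Exact repeats of AGGTCA 1 base apart, forms known to be bound by FXR with its partner RXR and by HNF4A, were in no member promoter. The exact inverted form was in 2 and the exact direct form in 10 of all promoters, so their absence from members says little. No mismatch was allowed, and the Abcb11 stretch holds aggccatTGACCT, which differs from the inverted form by 1 base. A match is a match of letters only.

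At low levels stood Abcb1a, a multidrug efflux pump gene (chromosome 5, 8660077 to 8748575, plus strand), with means of 1.94, 3.93 and 3.22. Its paralog Abcb1b, which is no member and was looked up after these values were seen, had means of 3.61, 2.03 and 1.26, highest where Abcb1a was lowest, while both were lower in Scd2f/f;CC than in Scd2f/f liver under DEN + WAD. Transcripts of the pair share an exact run of 338 bases in GENCODE M21, and the authors' counting method divides reads that fit both genes, so the 2.03-fold ratio of Abcb1a between DEN + WAD and untreated Scd2f/f liver is uncertain.

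Genes for export back to blood had their highest means mostly in DEN + WAD Scd2f/f liver. Abcc3, a sinusoidal pump for conjugates, had means of 124, 195 and 155, and Abcc4 of 1.72, 3.92 and 2.73. Slc51b, under the filter, had means of 0.097, 0.381 and 0.159, the same order. Abcc6, a basolateral pump gene of hepatocytes, differed from them with means of 46.0, 60.8 and 76.0. In the endocrine loop, the receptor gene Fgfr4 had means of 11.5, 14.6 and 15.5, and its co-receptor gene Klb of 15.4, 18.2 and 24.9. Klb was 1.37-fold higher in Scd2f/f;CC than in Scd2f/f liver under DEN + WAD.

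**Figure D2:**
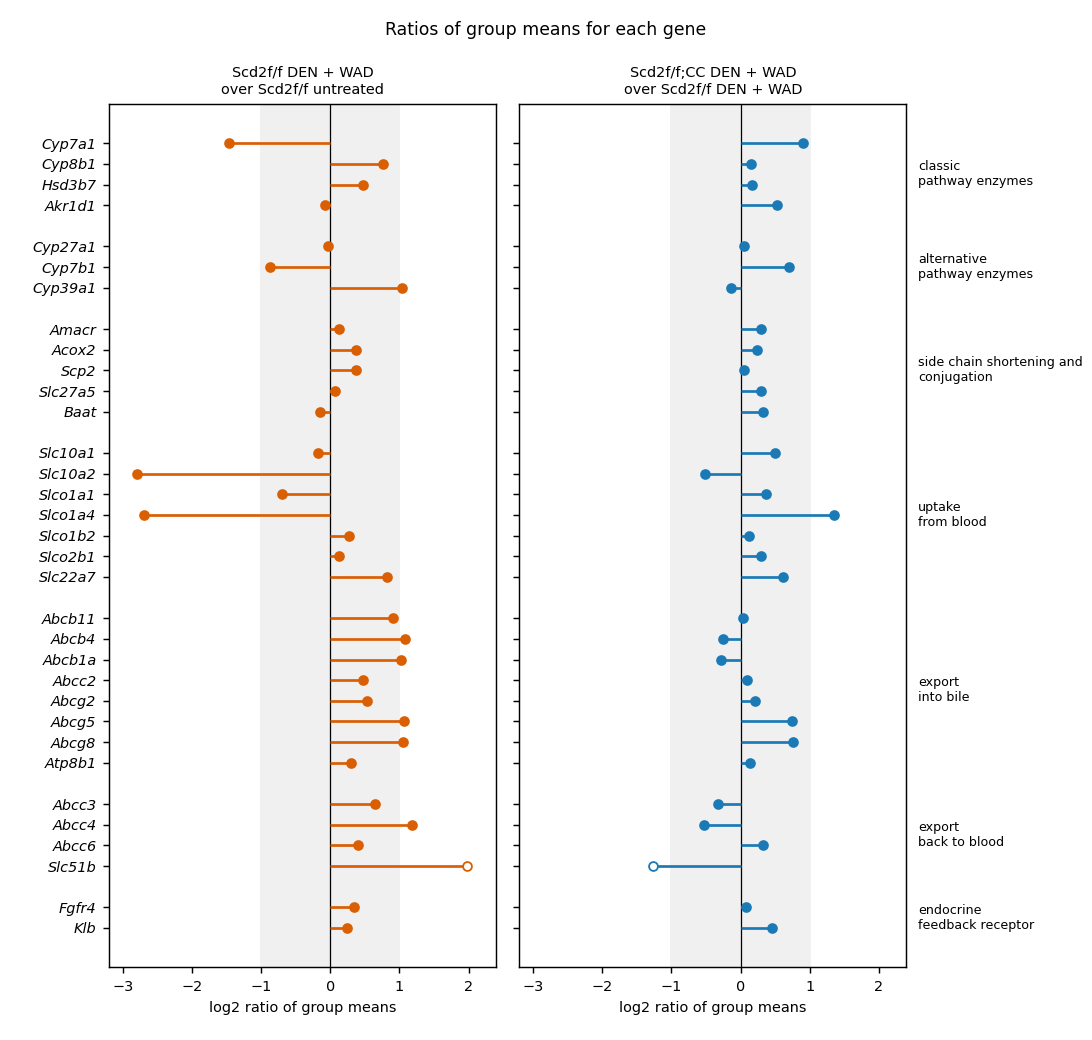
Log2 ratios of group means for each member, ordered by role, for DEN + WAD over untreated Scd2f/f (left, orange) and Scd2f/f;CC over Scd2f/f under DEN + WAD (right, blue). The grey band covers ratios within 2-fold and open circles mark Slc51b, whose mean was under 1. On the left all 8 genes for export into bile lie above 0 and Slc10a2 and Slco1a4 reach -2.80 and -2.70, while on the right only Slco1a4, at 1.35, lies above the band. The panels share the DEN + WAD Scd2f/f group.

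Ablation of Scd2 in Col1a1-expressing cells was then examined under DEN + WAD. Only Slco1a4 of the 32 members was at least 2-fold higher in Scd2f/f;CC than in Scd2f/f liver, against 0.645% of all genes, and 0 were at least 2-fold lower, against 1.54%. At 1.5-fold, 6 members were higher, against 2.35% of all genes, and 0 lower, against 4.9%. These 6 were Slco1a4, Cyp7a1, Abcg8, Abcg5, Cyp7b1 and Slc22a7. In any amount 26 members were higher and 6 lower, against 5957 higher and 5698 lower of the 11784 genes above the filter. The 6 lower were Cyp39a1, Slc10a2, Abcb4, Abcb1a, Abcc3 and Abcc4. The median log2 ratio was 0.22 over the members and 0.01 over all genes. The 9 hepatocyte markers were also all higher, with a median of 0.19, and the 10 markers of stellate cells and portal fibroblasts all lower, 5 of them at least 2-fold without the filter, with sums of 202, 342 and 196. The part of these other cell types in the members' values was not tested.

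This comparison shares the DEN + WAD Scd2f/f group with the first, so a mean that is low or high in that group by chance moves both ratios in opposite ways, and the values are given only side by side. Of the 32 members, 8 had their lowest mean in DEN + WAD Scd2f/f liver, or 25%, against 30.5% of all genes. These were Cyp7a1, Cyp7b1, Akr1d1, Cyp27a1, Baat, Slc10a1, Slco1a1 and Slco1a4. The group with the highest mean was Scd2f/f;CC for 22 members, or 68.8%, against 29.3% of all genes, and the lowest mean was that of untreated liver for 23 members, or 71.9%, against 44.7%. A highest mean in Scd2f/f;CC liver was not particular to the members. All of the 9 hepatocyte markers but Apoa1 had it too.

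In Scd2f/f;CC liver under DEN + WAD against untreated Scd2f/f liver, 3 members were at least 2-fold higher, Abcg5, Abcg8 and Slc22a7, against 4.51% of all genes. Slc10a2 and Slco1a4 were at least 2-fold lower, against 2.55%. At 1.5-fold, 14 members were higher against 10.9% of all genes, and 2 lower against 7.71%. Cyp7a1 lay 1.48-fold below untreated liver in this comparison and Cyp7b1 1.13-fold below. The median log2 ratio was 0.45 over the members and 0.04 over all genes. This comparison differs in both genotype and treatment, and shares a group with each of the other 2.

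**Figure D3:**
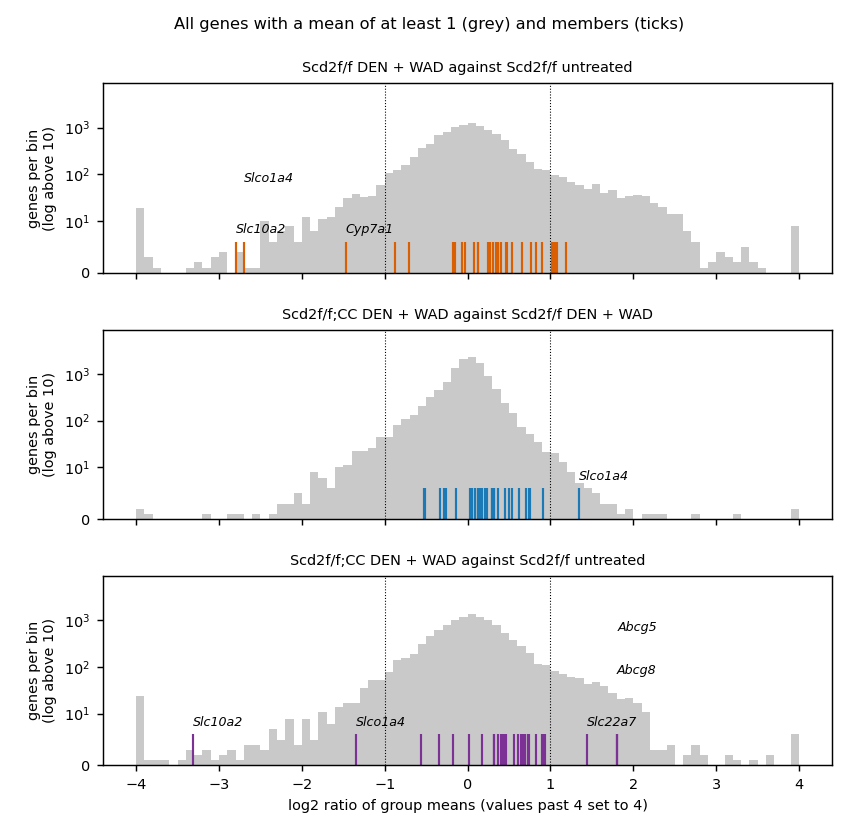
Distribution of log2 ratios of group means over the 11784 genes above the filter (grey histograms, genes per bin) with the 32 members as colored ticks, for the 3 comparisons. Dotted lines mark 2-fold, and members past 1.3 on either side are named. Members sit mainly right of 0 in the middle panel, where their median was 0.22, and the tails hold Slc10a2, Slco1a4 and Cyp7a1 in the top panel.

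Regulators of these genes were mostly within 1.5-fold, with Nr0b2, Prox1 and Foxa3 the exceptions. Of 19 listed regulators 16 had a mean of at least 1, and 1 was past 2-fold in DEN + WAD over untreated Scd2f/f. That gene was Nr0b2, which encodes the repressor SHP and is itself induced by the bile acid receptor FXR, with means of 4.71, 10.4 and 14.7. FXR's gene Nr1h4 had means of 66.4, 57.7 and 62.2, and Nr5a2, which encodes the Cyp7a1 activator LRH-1, of 40.2, 35.5 and 43.9. Prox1, a hepatocyte co-repressor of Cyp7a1, had means of 110, 58.1 and 92.0, and the forkhead factor gene Foxa3 of 40.6, 21.4 and 22.7. Hnf4a was within 1.27-fold throughout, at 271, 229 and 213. The median log2 ratio of the list was -0.14 for DEN + WAD over untreated Scd2f/f, 0.11 for Scd2f/f;CC over Scd2f/f under DEN + WAD and 0.02 for Scd2f/f;CC under DEN + WAD over untreated liver.

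Among 14 further bile acid enzymes and carriers, 11 had a mean of at least 1. Cyp2c70, which makes the muricholic acids of the mouse, had means of 560, 252 and 415 and was 2.22-fold lower in DEN + WAD than in untreated Scd2f/f liver, the order also seen for Cyp7a1 and Cyp7b1. Cyp3a11, an oxidase of drugs and bile acids, had means of 3990, 2580 and 1830 and was 2.18-fold lower in the Scd2f/f;CC group than in untreated liver. None of the list was past 2-fold between the DEN + WAD groups. Its median log2 ratios were 0.22, 0.08 and 0.39 in the order of the comparisons above.

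Hepatocyte zone genes are given for reference because Cyp7a1 and Slco1a4 are known as pericentral genes. The 10 pericentral genes had a median log2 ratio of 0.20 both for DEN + WAD over untreated Scd2f/f and for Scd2f/f;CC over Scd2f/f under DEN + WAD. Of these, 8 were higher and 2 lower in any amount in DEN + WAD than in untreated Scd2f/f liver, against 6216 and 5498 of the 11784 genes above the filter. Slc1a2 was 2.44-fold higher in that comparison. Oat, at 244, 441 and 593, was 2.43-fold higher in Scd2f/f;CC under DEN + WAD than in untreated liver. Cyp1a2, 1 of the 2 lower, was at 335, 225 and 302. The 10 periportal genes had medians of -0.15 and 0.39. Cyp2e1 of the first list and Cps1 of the second are also among the hepatocyte markers. Outside the hepatocytes, the 8 macrophage markers were all at least 2-fold higher in DEN + WAD than in untreated Scd2f/f liver, with sums of 82.0, 310 and 278, and the 7 endothelial markers had a median of 0.44. The 7 T and B cell markers all had means under 1 over the groups and a median of 1.17 without the filter. The part of these cells in the members' values was not tested.

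**Figure D4:**
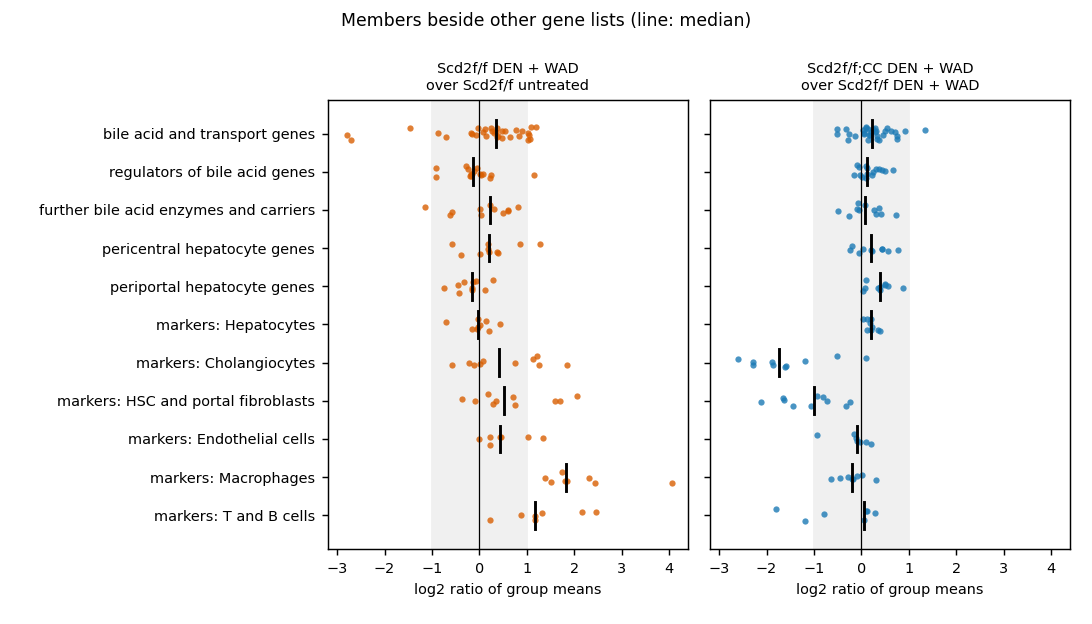
Log2 ratios of group means for the 32 members and for other gene lists, with DEN + WAD over untreated Scd2f/f on the left and Scd2f/f;CC over Scd2f/f under DEN + WAD on the right. Each point is a gene, black lines are list medians, the grey band covers ratios within 2-fold, and cell type markers are shown without the filter on low means. The members' medians were 0.36 and 0.22, those of macrophage markers 1.83 and -0.19, and those of cholangiocyte markers 0.41 and -1.74.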

How the data were processed

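Poly(A) libraries (TruSeq v2 kit, which does not keep strand) of 3 liver samples per group were sequenced on an Illumina NextSeq. The submitters' processing notes name STAR 2.6.1, Partek 6 and mm10. The authors assigned reads to GENCODE M3 genes with an expectation-maximization method, scaled them by upper quartile over all samples and fitted a least-squares mean per group. The deposited signal values are these means, in normalized counts with 3 significant digits, for 16755 genes. Another 8 columns hold the authors' own comparisons (p-values, false discovery rates, ratios and fold changes) and were not used. A second column of the DEN + WAD Scd2f/f means repeats the first.

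From the means, log2 ratios were computed for 3 comparisons without a pseudocount. Genes with a mean over the groups of at least 1 were counted past 2-fold. With no per-sample value there is no SD, no test and no known depth or counting error. Alternatives were 1.5-fold, a pseudocount of 1, centring on the median gene, no filter and a mean of at least 10. Levels per kilobase used exon lengths of GENCODE M21 basic annotation on GRCm38. The table's starts equalled those of M21 for 14865 and its stops, taken 1 base back, for 14832 of 16171 matched genes, and coordinates are given so. Shared runs of related genes are the longest exact matches between their M21 transcripts. Sequences and promoters are from RefSeq on GRCm38.p6. The counting code (Python 3.11.15, pandas 2.3.3) was checked on group means with planted folds. No noise was added, so this checks the arithmetic only. Every member was named, and genes of other lists mainly where past 2-fold or tied to a member's account. Members and lists were chosen with earlier results of these data known, and GATAA and AGGTCA were added as motifs after the sequences were seen.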

Additional observations from a re-analysis of the deposited data

How the results depend on the processing

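With a limit of 1.5-fold in place of 2-fold, the members counted in DEN + WAD over untreated Scd2f/f went from 6 to 10 higher and from 3 to 5 lower, those higher in Scd2f/f;CC over Scd2f/f under DEN + WAD from 1 to 6, and those higher in Scd2f/f;CC under DEN + WAD over untreated Scd2f/f from 3 to 14. In DEN + WAD over untreated Scd2f/f, a pseudocount of 1 left 3 members higher, against 3.83% of all genes, and a mean of at least 10 left 3, against 2.6%. Without the filter, Slc51b became the 1 member at least 2-fold lower in Scd2f/f;CC than in Scd2f/f liver under DEN + WAD. Centring on the median of all genes moved none of 99 member ratios by 0.1 or more but put Abcb1a in DEN + WAD over untreated Scd2f/f under the limit, at a log2 ratio of 0.99, leaving 5 members higher, and turned the near-level Cyp27a1 in Scd2f/f;CC under DEN + WAD over untreated Scd2f/f from 0.02 to -0.02. A pseudocount of 1 moved 13 of 99, each without a change of sign. The members' median ratios moved by less than 0.1 under every alternative run. No paired analysis was possible because the table holds group means, and for the same reason no sample could be left out. How far any ratio exceeds the spread between mice is unknown here. Among members past 2-fold in DEN + WAD over untreated Scd2f/f, the 6 higher ones, at 2.03-fold to 2.28-fold, lie closest to the limit.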
